A study of Arabidopsis thaliana with 42 samples.

Results

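acs4A is an Arabidopsis thaliana seedling line whose name refers to ACS4, a gene for ACC synthase, and it was set against the wild type Col on 3 arrays each. These 6 arrays were chosen by their titles from the 42 of the series, and the 21 arrays of the other lines named for a single ACS gene (acs1A, acs2B, acs2C, acs5C, acs5D, acs6E and acs9B, 3 each) served for comparison. All were whole seedlings grown for 10 days at 25 °C in 16 h of light per day on medium with 1% sucrose, after 2 days at 4 °C. Biotin-labelled cRNA from 10 µg of total RNA was hybridized to Affymetrix arrays, and the labels call the replicates biological. The kind of mutation in each line and the meaning of the final letter of its name were not stated in the sources used here.

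ACC synthase turns S-adenosylmethionine into ACC, the immediate precursor of the gaseous hormone ethylene, and this step commonly limits ethylene production. Arabidopsis has a family of these isoforms, which work as dimers and differ in where and when they are made. Ethylene is then sensed by receptors in the endoplasmic reticulum membrane and acts through EIN3, a transcription factor, on growth, stress responses and ageing. The study asked how the isoforms combine in this pathway. No probe set that could be named here measured ACS4 or another ACS gene, so the line could not be checked against its own target.

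The acs4A seedlings carried more transcript than both Col and the mean of the other lines for several genes. These were the clock gene GI, the vacuolar sugar carrier gene TMT1, the β-tubulin gene TUB5, the plastid thioredoxin gene TRXF2 and the locus AT3G13760. The seedlings carried less of EXO, a gene tied to brassinosteroid-promoted growth, of the salt-induced gene SIS, of the mitochondrial gene nad9, and of AT4G35320 and AT3G57450. These differences were modest, at 1.21-fold (TRXF2) to 2.44-fold (EXO) against Col. Those of GI, TUB5, TRXF2, AT3G13760 and EXO from Col did not pass the test when the 6 arrays were fitted alone. That of EXO from the other lines did not pass without acs4A replicate 3. Control transcripts also differed between acs4A and Col, so labelling or hybridization and genotype cannot be told apart there. For TUB5 the acs9B mean was higher still, and for SIS the acs6E mean was lower still. Many of the differences from Col were shared with the mean of the other lines.

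One of the 3 acs4A arrays stood apart, and this bears on every result below. The distance between arrays was taken as the root mean square (RMS) of the log2 differences over 22746 probe sets, the groups of short probes that each report on 1 transcript. Replicates 2 and 3 were 0.154 apart, whereas replicate 1 was 0.275 and 0.315 from them. The array nearest to replicate 1 was acs2C replicate 3, at 0.175, and the 3 acs2C arrays lay at 0.175 to 0.192. In the single set 26 arrays had their nearest neighbour in their own group, and acs4A replicate 1 was the 1 that did not.

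On the first principal component, which held 35% of the variance, acs4A replicate 1 had the lowest score of the 27 arrays, at -26.8, next to acs9B (-24.9 to -18.7) and acs2C (-18.4 to -18.1). Replicates 2 and 3 scored 5.93 and 13.8, on the side of acs2B (16.8 to 22.3) and acs6E (23.3 to 27.1). The array was then placed against probe sets in which a group lay beyond every array of all other groups, with replicate 1 itself left out of the choice. Of 458 such probe sets for acs4A replicates 2 and 3, replicate 1 lay nearer to their mean than to the mean of the other arrays in 134, or 29.3%. For the other 26 arrays the same share in their own groups was 50.3% to 91.3%, with a median of 67.0%. Of 231 such probe sets for acs2C, replicate 1 lay nearer to acs2C in 187, or 81.0%. Of 575 for acs9B, it lay nearer to acs9B in 340, or 59.1%, which is also within that range. For Col and the remaining lines the share ran from 1.78% (acs6E) to 33.3% (acs1A). Replicate 1 thus went against its label on these measures. The cause was not tested, and results are given with and without that array.

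**Figure D1:**
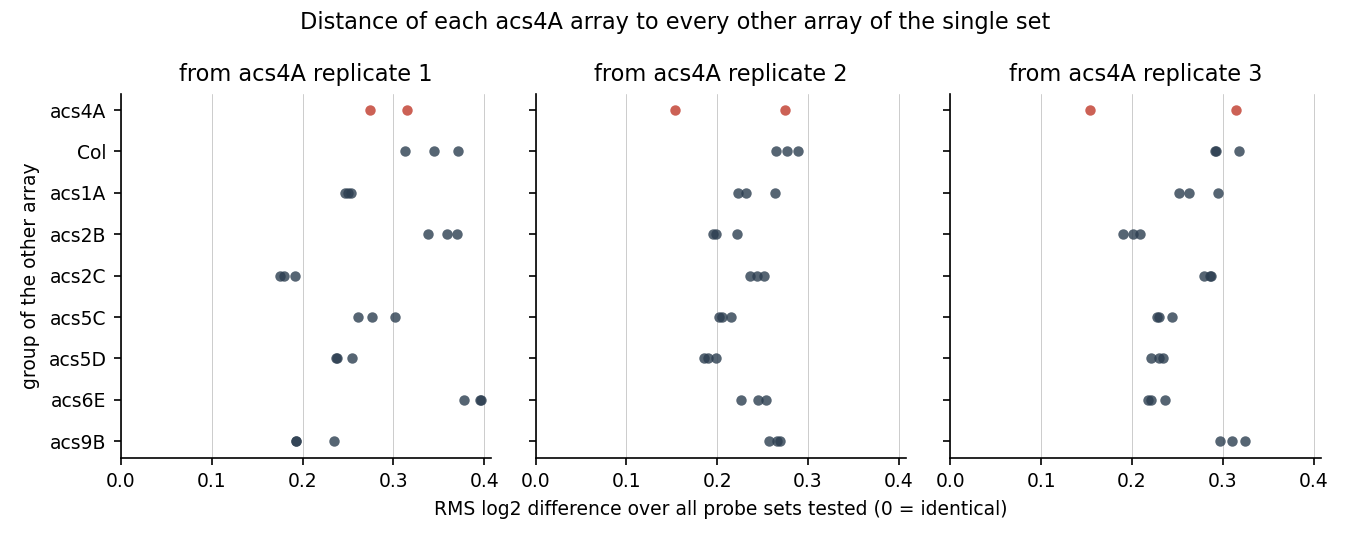
RMS log2 difference (x axis, from 0) between each of the 3 acs4A arrays, 1 per panel, and every other array of the single set, by group (y axis); red points are distances to other acs4A arrays. Replicates 2 and 3 are nearest to each other at 0.154, while replicate 1 lies at 0.175 to 0.192 from the acs2C arrays and at 0.275 and 0.315 from its own group.

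Against Col, limma called 4610 of the 22746 probe sets at an adjusted p under 0.05, which is 20.3%, with 2177 higher (9.57%) and 2433 lower (10.7%). In 3866 of the 4610 all 3 acs4A arrays lay beyond all 3 Col arrays on that side. Of all probe sets, acs4A lay wholly above Col in 11.5% and wholly below in 14%, whether called or not. Without replicate 1 the call count was 4376 (19.2%). A second quantile normalization left 2482 higher and 2105 lower, so the data do not fix which direction was the more common. The 6 arrays fitted alone, with no spread borrowed from the other lines, gave 571 calls (2.51%).

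Control transcripts also differed between these groups. Of 45 control probe sets for transcripts of other organisms, 39 were called between acs4A and Col, 21 higher and 18 lower, and 10 were called against the other lines, all lower. The spiked thr control read 8.03 to 8.14 in acs4A and 6.81 to 6.97 in Col, and the hybridization control bioC 7.37 to 7.61 and 8.43 to 8.83. In the comparison with Col, labelling or hybridization and genotype therefore cannot be told apart. The other lines were used as a further control, but they do not remove this limit, since 10 control probe sets were called there. bioC read lower in all acs4A arrays than in those of acs5D, acs6E and acs9B and in an acs2B array. Against the other lines 780 probe sets were called, and 401 against lines at the same bioC level. The latter fit rests on fewer lines. The p-values rest on a spread pooled over all groups of the single set. The median SD (standard deviation) within a group was 0.120 in Col and 0.101 in acs4A. In the other lines it ran from 0.0722 (acs6E) to 0.0888 (acs9B). The pooled spread can therefore understate the error of the comparison with Col.

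Against the equal mean of the 7 other lines, 780 probe sets were called (3.43%), 478 higher (2.1%) and 302 lower (1.33%). Without replicate 1 this count was 1540, without replicate 2 it was 419 and without replicate 3 it was 500. Of the calls against Col, 378 were also called against the other lines in the same direction, which is 8.20% of the former and 48.5% of the latter. Both comparisons share the acs4A arrays.

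A probe set is called held below where it passed both tests in 1 direction, with all 3 acs4A arrays beyond all 3 Col arrays and beyond the mean of the other lines. This applied to 322 probe sets (1.42%), 154 higher (0.677%) and 168 lower (0.739%), of which 81 and 83 report on a single named gene. The difference from Col was at least 0.5 on the log2 scale in 128 of the 322 and at least 1 in 18. Without replicate 1 the count was 707, and 211 of the 322 were among them. Without replicate 2 it was 207 and without replicate 3 it was 248. Against lines at the same level of bioC alone it was 181.

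**Figure D2:**
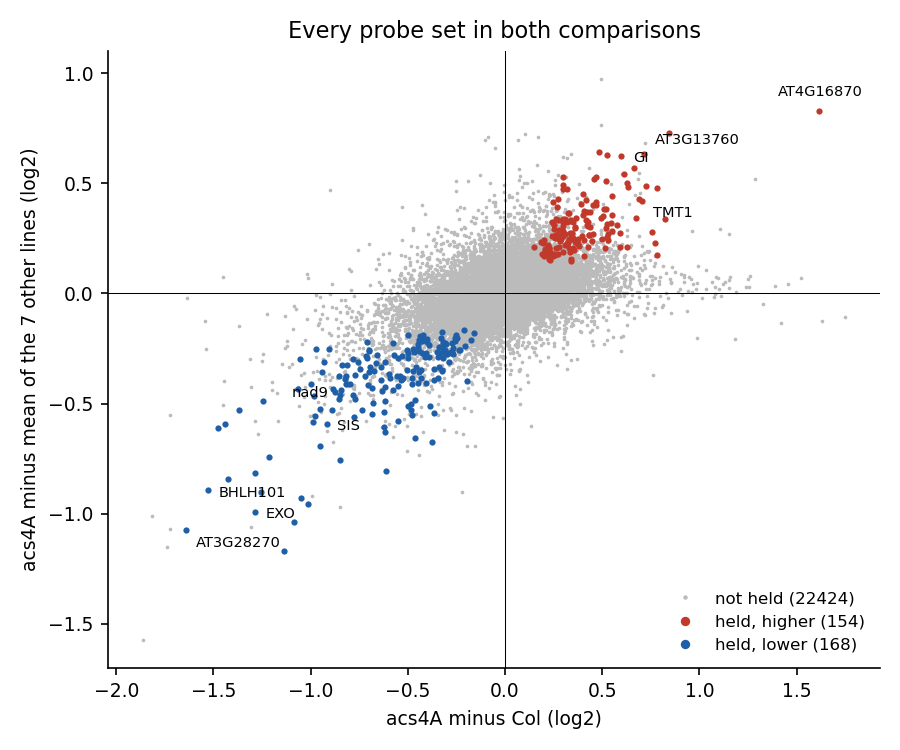
Log2 difference of acs4A from Col (x axis) against its difference from the mean of the 7 other lines (y axis) for all 22746 probe sets; red and blue points are the 154 and 168 held probe sets. The 2 axes share the acs4A arrays, so the tilt of the cloud is not a result; the many points far out on the x axis and near 0 on the y axis are differences from Col that the other lines share.

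The largest rise among held genes was that of AT4G16870, a locus that RefSeq annotates as a pseudogene. Its log2 signal was 7.63, 7.63 and 7.51 in acs4A and 6.41, 5.79 and 5.72 in Col. By the definition of held, the acs4A and Col arrays do not overlap in this or any other held gene. The rise was 3.06-fold (log2 difference 1.62 ± 0.15, SE, adjusted p = 8.51e-08). Its level differed widely among lines, however, from a mean of 5.55 in acs6E to 7.72 in acs2C, and acs4A lay above 6 of the 7 line means. Against their mean it was 0.83 ± 0.11 higher (adjusted p = 0.000111), and both calls held without each of the 6 arrays in turn.

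GI, a circadian clock gene that also promotes flowering in long days, read 8.13, 8.60 and 8.51 in acs4A and 7.97, 7.71 and 7.71 in Col. The other 7 lines had means of 7.63 to 8.01, and no other array of the single set reached the lowest acs4A array. GI rose by 0.61 ± 0.10 against Col (1.53-fold, adjusted p = 8.10e-05) and by 0.54 ± 0.07 against the other lines (adjusted p = 8.70e-05). Replicate 1 was the lowest of the 3, and without it the differences were 0.76 and 0.68. On the 6 arrays alone the call against Col was lost (adjusted p = 0.0629). GI was the one named member of the clock list that had a probe set, so nothing can be said of the rest of the clock.

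TMT1, which encodes a carrier that loads hexoses into the vacuole, read 8.64, 8.38 and 8.32 against 7.95, 7.58 and 7.70 in Col. All 3 arrays lay above Col and above the mean of each other line. The rise was 0.71 ± 0.11 against Col (adjusted p = 6.12e-05) and 0.42 ± 0.08 against the other lines (adjusted p = 0.00375). It held without each array in turn and on the 6 arrays alone (adjusted p = 0.0342).

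AT3G13760 had the widest gap to the rest among named genes above all other arrays. It read 7.27, 7.25 and 7.28 in acs4A, at least 0.239 above every one of the other 24 arrays, and 6.97, 6.39 and 6.29 in Col. It rose by 0.72 ± 0.14 against Col (adjusted p = 0.000624) and by 0.63 ± 0.10 against the other lines (adjusted p = 0.000849). Here replicate 1 did not differ from replicates 2 and 3. The gene was picked because all 3 arrays lay above the other 24, those of acs2C included. The distance of replicate 1 from the acs2C mean of 6.63 was therefore built in. The call against Col was lost on the 6 arrays alone (adjusted p = 0.0666).

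TRXF2, a plastid thioredoxin that switches on enzymes of carbon fixation in light, showed a small but even rise. It read 10.65, 10.66 and 10.67 in acs4A and 10.36, 10.43 and 10.38 in Col. The differences were 0.27 ± 0.05 from Col (adjusted p = 0.000344) and 0.33 ± 0.04 from the other lines (adjusted p = 1.02e-05), and every acs4A array lay above all 24 others. LSMT-L, related to the methyltransferase that acts on Rubisco, and UGT80B1, a sterol glucosyltransferase, rose by 0.31 and 0.34 against Col and by 0.27 and 0.33 against the other lines. The calls of TRXF2, LSMT-L and UGT80B1 against Col were lost on the 6 arrays alone (adjusted p = 0.0995, 0.116 and 0.0953).

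AT2G40960, AT1G78170 and AT5G27280, for which no role is given here, rose by 0.73, 0.69 and 0.63 against Col and by 0.49, 0.43 and 0.48 against the other lines. For these 3 loci no array whose removal was tried ended a call, and all 3 were called on the 6 arrays alone. The ubiquitin-conjugating enzyme gene UBC20 rose by 0.26 in both comparisons and lay above all 24 other arrays, but its call against Col did not survive leaving out Col replicate 2 (adjusted p = 0.0541), nor that against the other lines leaving out acs4A replicate 3 (adjusted p = 0.0565). The call of 3xHMG-box2, a chromatin protein, against Col (0.30) was lost without any 1 of acs4A replicates 2 and 3 and Col replicates 2 and 3 (adjusted p = 0.0578 to 0.147), while its rise of 0.48 against the other lines stood.

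**Figure D3:**
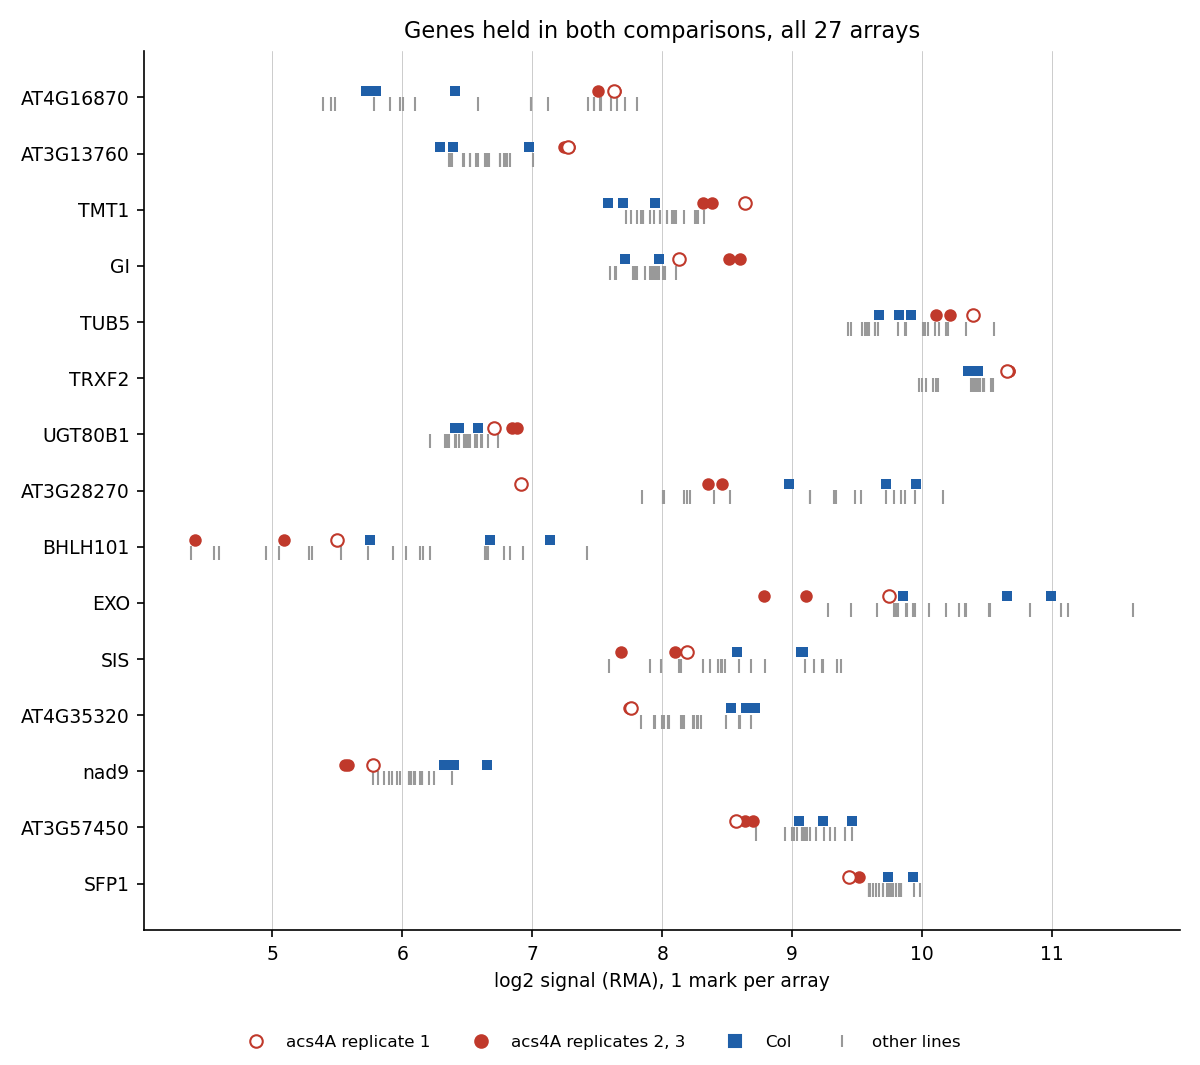
Log2 signal (x axis) of 15 held genes in each of the 27 arrays of the single set, with acs4A replicate 1 as an open circle, replicates 2 and 3 as filled circles, Col as squares and the other lines as grey ticks. In every row the circles lie beyond the squares, as the choice of held genes requires. For AT3G13760, GI, TRXF2, AT4G35320, AT3G57450 and SFP1 the circles also lie beyond every tick, whereas the other lines span both groups for AT4G16870, BHLH101 and SIS.

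Among the lowered genes, EXO read 9.74, 9.11 and 8.78 in acs4A and 10.99, 9.85 and 10.65 in Col. EXO encodes an extracellular protein needed for cell expansion and raised by brassinosteroid. The groups came close, and every other line had a higher mean, from 9.51 in acs2B to 11.27 in acs1A. It fell by 1.28 ± 0.25 against Col (2.44-fold, adjusted p = 0.000844) and by 0.99 ± 0.19 against the other lines (adjusted p = 0.00377). Without acs4A replicate 3 the second call was lost (adjusted p = 0.0644), and on the 6 arrays alone the first was lost (adjusted p = 0.0769).

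SIS, named for its induction by salt, read 8.19, 8.10 and 7.68 against 9.07, 8.57 and 9.08 in Col. It fell by 0.92 ± 0.14 against Col (adjusted p = 6.52e-05) and by 0.59 ± 0.11 against the other lines (adjusted p = 0.00205). Both calls held without each array in turn. The line acs6E had a lower mean still, at 7.83, so a low SIS level was not limited to acs4A.

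AT4G35320 was even across the acs4A arrays, at 7.76, 7.75 and 7.75 in acs4A and 8.71, 8.53 and 8.65 in Col. It fell by 0.88 ± 0.10 against Col (adjusted p = 1.74e-06) and by 0.45 ± 0.08 against the other lines (adjusted p = 0.00130). AT3G57450 fell by 0.62 ± 0.09 and 0.49 ± 0.07. In both loci all 3 acs4A arrays lay below all 24 others, and no array left out in turn ended either call. SFP1, a sugar transporter gene, also lay below all 24, with falls of 0.33 and 0.27, and its call against Col was lost on the 6 arrays alone (adjusted p = 0.0865).

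AT3G28270 fell most among held genes by the mean, and replicate 1 carried much of that fall. It read 6.91, 8.35 and 8.46 in acs4A, 8.97, 9.95 and 9.72 in Col, and 8.01 on average in acs2C. The fall of 1.64 ± 0.27 against Col (adjusted p = 0.000110) became 1.14 with replicates 2 and 3 alone (limma adjusted p = 0.000201). Set against the other lines, the fall of 1.07 became 0.58 (adjusted p = 0.0245), and on the 6 arrays alone the call against Col was lost (adjusted p = 0.0811). AT3G47295 fell by 1.06 ± 0.08 against Col and by 0.30 ± 0.06 against the other lines. Its Col values of 9.61, 9.57 and 9.45 stood far above acs4A (8.58, 8.41 and 8.48) and above all other lines (8.58 to 9.02), so most of its fall was shared. The smaller part was lost without acs4A replicate 2 (adjusted p = 0.0942).

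Smaller falls were found for RALFL33, a secreted signalling peptide of the RALF family, IAA18, an auxin-response repressor, and SWEET2, a sugar transporter. They fell by 0.54, 0.43 and 0.34 against Col and by 0.39, 0.35 and 0.39 against the other lines. Without acs4A replicate 3, RALFL33 and IAA18 were no longer called against the other lines (adjusted p = 0.0679 and 0.0774), and IAA18 also not without replicate 2 (adjusted p = 0.108). All 3 lost their call against Col on the 6 arrays alone (adjusted p = 0.0741, 0.118 and 0.135).

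The gene groups were described by counts and medians, with the brightest probe set standing for a gene. For all 13350 named genes, 1053 were higher and 1407 lower than Col, with a median difference of -0.03. Of these genes 258 were higher and 134 lower than the other lines, with a median of 0.00. Each count below is to be read beside the shares over all probe sets. These were 9.57% higher and 10.7% lower against Col, and 2.1% and 1.33% against the other lines. Of the list genes 159 were called against Col and 20 on the 6 arrays alone. Neither a second quantile normalization nor centring on the median turned the direction of the majority in the tubulin, mitochondrial, iron, histone H2B, RALF or SWEET groups.

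Tubulins, the subunits of microtubules, were higher in 4 of 7 measured members and lower in none against Col, with a median of 0.23. TUB5 read 10.39, 10.22 and 10.10 against 9.67, 9.82 and 9.91, a rise of 0.43 ± 0.08 (adjusted p = 0.000434). TUB5, a held gene, rose by 0.37 against the other lines, although acs9B had a higher mean (10.36). TUB6 rose by 0.23 and 0.21, the latter call being lost against lines at the same bioC level (adjusted p = 0.0625), and the α-tubulin TUA6 by 0.27 against Col with a difference of 0.16 from the other lines that was not called (adjusted p = 0.0604). TUB1 rose by 0.27 against Col but lost that call without Col replicate 1 or 2 or acs4A replicate 2 or 3 (adjusted p = 0.0697 to 0.0892). TUB7 was called against the other lines only (0.17), and not without any 1 of the acs4A arrays (adjusted p = 0.0561 to 0.0801). TUB9 and TUA1 differed from Col by -0.06 and -0.03. Against the other lines TUA1 differed by -0.15 with no call (adjusted p = 0.0816). Without replicate 1 limma called TUA1 lower than the other lines, at -0.20 (adjusted p = 0.0197). TUB5, TUB6 and TUA6 lost their calls against Col on the 6 arrays alone (adjusted p = 0.0731, 0.183 and 0.170). Tubulin copies are similar in sequence, and cross-hybridization was not tested.

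Mitochondrion-encoded genes fell in 8 of 16 and rose in 1 against Col, and fell in 4 and rose in none against the other lines. Nad9, a subunit of respiratory complex I, read 5.78, 5.56 and 5.58 against 6.65, 6.40 and 6.32, a fall of 0.82 ± 0.10 (adjusted p = 2.81e-06). Nad9, a held gene, also fell by 0.41 ± 0.07 against the other lines (adjusted p = 0.00203). Both calls held without each array in turn. For nad1, also of complex I, 2 dimmer probe sets fell by 0.66 and 0.76 against Col and by 0.28 and 0.31 against the other lines, while its brightest did not pass (-0.10 against Col, adjusted p = 0.485). The second of the 2 lost its call against the other lines without acs4A replicate 3 (adjusted p = 0.0750), so the probe sets of nad1 disagree. ccb452, for a part of the cytochrome c maturation machinery, fell by 0.35 and 0.29. Its call against Col was lost on the 6 arrays alone (adjusted p = 0.118), and that against the other lines at the same bioC level (adjusted p = 0.0720).

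The other genes of this group called against Col were not called against the mean of the other lines. ccb206 and nad2 fell by 0.63 each and cox1, a subunit of cytochrome c oxidase, rose by 0.66. Their differences from the other lines were -0.24, -0.05 and -0.11. For ccb206 the SE of that difference was 0.07 (limma adjusted p = 0.0861), so part of its fall may not be shared. Cox2 and nad4L fell against the other lines by 0.33 and 0.30 but were not called against Col. Those 2 calls were lost without acs4A replicate 2 (adjusted p = 0.0604 and 0.189), and that of nad4L also without replicate 3 (adjusted p = 0.154). Plastid-encoded genes, 69 in number, split into 9 higher and 13 lower than Col, beside 9.57% and 10.7% of all probe sets. Limma called none of them against the other lines (5 at an unadjusted p under 0.05, and 2 lower after adjustment without replicate 1). PsbB, a core antenna protein of photosystem II, rose by 1.39 and psbN fell by 1.54 against Col, and their differences from the other lines were 0.03 and -0.12.

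All 3 measured genes of the iron deficiency list fell against Col, and 1 fell against the other lines. BHLH101, a transcription factor that switches on iron uptake when iron is short, read 5.49, 5.09 and 4.41 against 5.75, 6.68 and 7.14. It fell by 1.53 ± 0.30 against Col (adjusted p = 0.000859) and by 0.89 ± 0.23 against the other lines (adjusted p = 0.0276). The lines spread from 4.50 in acs1A to 6.82 in acs5C, and the second call was lost against lines at the same bioC level (adjusted p = 0.319), with a trended robust prior (adjusted p = 0.0632) and without acs4A replicate 2 or 3 (adjusted p = 0.0884 and 0.260). AT1G47400 fell by 1.72 against Col and differed by -0.55 from the other lines (adjusted p = 0.195). PYE, which represses part of the iron response, fell by 0.43 against Col, and lost that call without Col replicate 2 or 3 (adjusted p = 0.0554 and 0.0702).

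Histone H2B genes fell in 3 of 4 against Col, by 0.38 (HTB11), 0.44 (HTB1) and 0.63 (HTB2), while their differences from the other lines were 0.08, 0.05 and 0.18. Of the 4, limma called none against the other lines, with 2 at an unadjusted p under 0.05. Without replicate 1 limma called HTB1 higher than the other lines, at 0.19 (adjusted p = 0.0332). HTB11 and HTB1 lost their calls against Col on the 6 arrays alone (adjusted p = 0.104 and 0.115). RALF-like peptides fell in 4 of 11 and rose in 1 against Col, where RALFL27 rose by 0.54, a call lost on the 6 arrays alone (adjusted p = 0.150). RALFL32 lost its call without acs4A replicate 1 or 3 or Col replicate 1 (adjusted p = 0.106 to 0.182), after a second quantile normalization (adjusted p = 0.0502) and with array weights (adjusted p = 0.369), and RALFL24 without Col replicate 3 (adjusted p = 0.0527). Of the SWEET sugar transporters 4 of 15 fell against Col and none rose, and SWEET2 was the 1 called against the other lines. Without replicate 1 the SWEET count was 3, since SWEET13 and SAG29 lost their calls (adjusted p = 0.162 and 0.0585) and SWEET4 gained one (-0.41, adjusted p = 0.0382). SWEET13 also lost its call without Col replicate 3 (adjusted p = 0.0585), and SAG29 without acs4A replicate 2 or Col replicate 2 or 3 (adjusted p = 0.0851 to 0.107). Xyloglucan enzymes, a group picked by name and most of whose members cut and rejoin a wall polysaccharide, fell in 4 of 11 against Col. Of these, XTH32 fell by 0.53 and EXGT-A3 by 0.46. XTH32 lost its call on the 6 arrays alone (adjusted p = 0.105), XTH19 without acs4A replicate 1 or 2 or Col replicate 1 or 3 (adjusted p = 0.0628 to 0.219), and XTH29 without acs4A replicate 2 or 3 or Col replicate 1 or 3 (adjusted p = 0.106 to 0.231) and after a second quantile normalization (adjusted p = 0.106). EXGT-A3 lost its call against Col without acs4A replicate 3 or Col replicate 1 (adjusted p = 0.0667 and 0.0581). It also fell against the other lines, by 0.37, and lost that call without acs4A replicate 2 or 3 (adjusted p = 0.0935 and 0.266). GH9 cellulases rose in 3 of 15 and fell in 1 against Col, with a median of 0.01, beside 9.57% of all probe sets higher and 10.7% lower. Of the 3, GH9C1 and GH9C2 lost their calls without acs4A replicate 2 (adjusted p = 0.146 and 0.143) and without replicate 3 (adjusted p = 0.141 and 0.222), GH9C1 also without Col replicate 2 (adjusted p = 0.136), and GH9C2 without Col replicate 1 or 3 (adjusted p = 0.304 and 0.0719). Against the other lines limma called none of the 15 (2 at an unadjusted p under 0.05) until replicate 1 was left out, as given below.

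**Figure D4:**
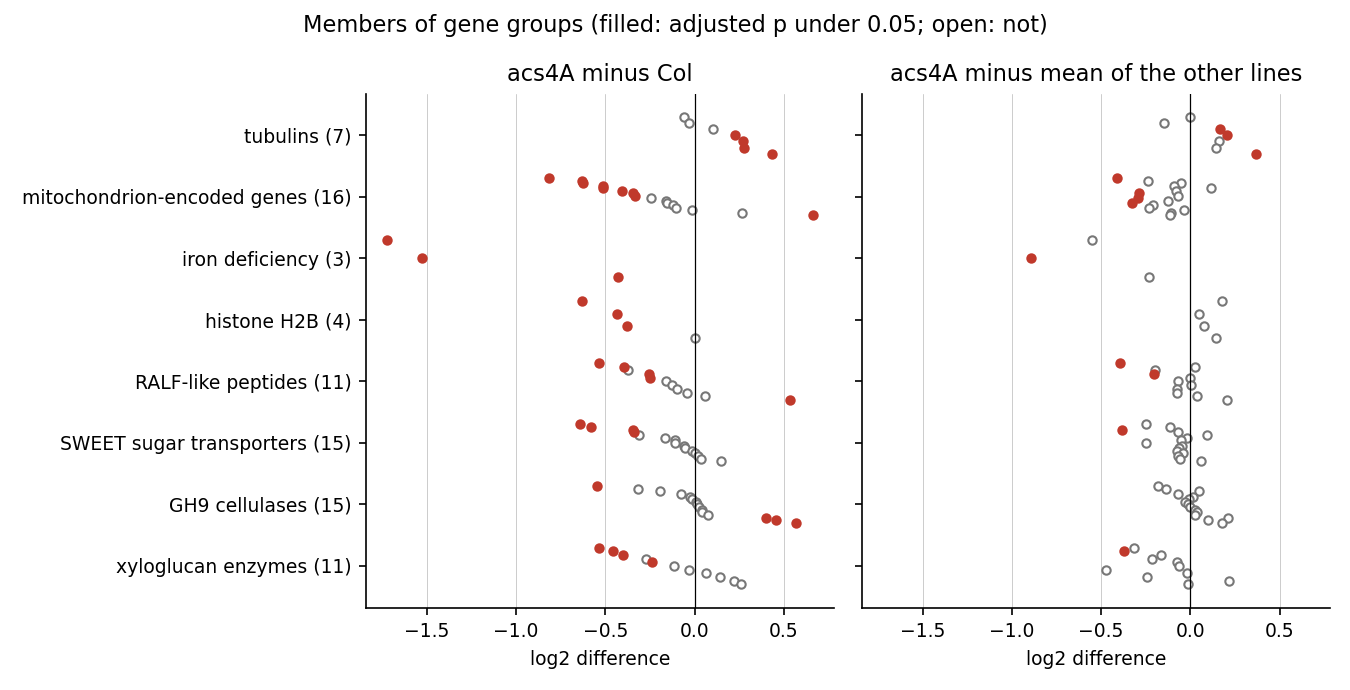
Log2 difference of each member of 8 gene groups (y axis, number of measured genes in brackets) from Col (left) and from the mean of the other lines (right); filled points passed an adjusted p of 0.05 in the main fit and open points did not. Tubulins lie mostly right of 0 in both panels and mitochondrial genes mostly left, whereas the 3 filled histone H2B points on the left become open points above 0 on the right.

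In 80 probe sets (0.352%) all 3 acs4A arrays lay beyond all 24 other arrays of the single set, 60 above (0.264%) and 20 below (0.0879%), and 28 and 8 of these report on a named gene. By the same count acs5D had 64, acs2C 86, acs2B 125, acs1A 137, acs5C 164, acs9B 378, acs6E 841 and Col 1369. Without replicate 1 the acs4A count was 458. Beside AT3G13760, TRXF2 and UBC20, the widest gaps above belonged to AT5G14230 (0.105), AT3G46370 (0.096) and AT3G26580 (0.092). The call of AT5G14230 against the other lines was lost without acs4A replicate 2 (adjusted p = 0.0538). AT3G46370 read 5.10, 5.48 and 5.36 in acs4A and at most 5.01 elsewhere. It rose by 0.49 against Col and by 0.64 against the other lines. AT3G26580 read 10.01, 10.09 and 10.04 in acs4A and at most 9.92 in another line. Their calls against Col were lost on the 6 arrays alone (adjusted p = 0.0726 and 0.0998).

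Some transcripts were not called between acs4A and Col but were above the mean of the other lines. PORB, which makes a chlorophyll precursor in light, read 11.51, 11.03 and 11.05 in acs4A and 11.53, 11.11 and 11.21 in Col. These overlap, and at -0.09 ± 0.13 from Col no call was made (adjusted p = 0.691), but acs4A was 0.71 ± 0.10 above the mean of the other lines (adjusted p = 0.000102). That mean is drawn down by acs6E (9.20), while acs2C and acs9B (11.27 and 11.24) lay above the acs4A mean of 11.19. Without replicate 1 the difference from the other lines was 0.55 (adjusted p = 0.00151).

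Neighbouring loci AT4G30650 and AT4G30660 lay above all 7 line means, at 0.70 and 0.73 above the other lines and -0.10 and 0.10 from Col. AT4G30660 read 9.21, 9.58 and 9.41 in acs4A, 9.37, 9.21 and 9.31 in Col, and 8.07 in acs6E, the lowest line. AT5G62350 was 0.53 ± 0.05 above the other lines (adjusted p = 6.48e-07), and DPE1, which reworks maltotriose during starch breakdown in the plastid, was 0.56 ± 0.07 above (adjusted p = 4.15e-05). PDC2, a pyruvate decarboxylase of fermentation, was 0.54 above, a call lost without acs4A replicate 2 (adjusted p = 0.0598). The other calls of these 5 genes held without each array in turn.

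In the opposite direction, PPDK, a pyruvate phosphate dikinase, GR1, a glutathione reductase, and PMEPCRF, a pectin methylesterase, lay 0.42, 0.41 and 0.40 below the other lines. Their differences from Col were -0.10, -0.17 and -0.07 and were not called. For GR1 replicate 1 (10.00) lay below replicates 2 and 3 (10.39 and 10.41), and without it the difference was -0.28 (adjusted p = 0.00342). AT3G07070 lay 0.46 below the mean of the other lines, which is set by acs1A at 9.16, and acs4A was in fact above 5 of the 7 line means.

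Some of the largest differences from Col without a call against the other lines were shared by the mean of those lines. AT5G10770 rose by 1.75 ± 0.15 against Col (adjusted p = 1.84e-08) and differed by -0.11 from the other lines, which themselves were 1.85 above Col. Between the mean of the other lines and Col 28.7% of probe sets were called. COR15A, a cold-induced chloroplast protein, fell by 1.63 ± 0.22 (7.06, 7.21 and 7.36 against 8.55, 9.13 and 8.86) and differed by -0.02 from the other lines. ORA47, a transcription factor of the jasmonate response, fell by 1.45, and the other lines by 1.52. On the 6 arrays alone the call of ORA47 was lost (adjusted p = 0.181), while AT5G10770 and COR15A were called.

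Genes of the ethylene pathway itself did not pass either test where they were measured. The differences from Col were -0.04 ± 0.10 for AT1G12010, entered in the list as an ACC oxidase, which makes ethylene from ACC, 0.08 ± 0.09 for EIN3, -0.06 ± 0.07 for RTE1, which acts on the receptor ETR1, and 0.03 ± 0.26 for the defensin PDF1.2, which ethylene and jasmonate induce. Their adjusted p-values were 0.827, 0.556, 0.594 and 0.961. The larger error of PDF1.2 leaves a wider range of differences possible than for the other 3. Of 19 measured genes among the 30 on each side of ACS4 on its chromosome, 2 were higher and 4 lower than Col (20.3% of all probe sets were called), and without replicate 1 this was 0 and 3. All 6 calls were lost on the 6 arrays alone (adjusted p = 0.166 to 0.325), and each was lost without at least 1 array. Limma called none against the other lines (3 at an unadjusted p under 0.05).

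Of the cell type markers with a named probe set, the leaf gene RCA, which activates Rubisco, differed from Col by -0.02, and the root genes PYK10 and EXPA7 by 0.05 and 0.24. None was called, and 0 of the 3 had an unadjusted p under 0.05. Seed and flower markers had no named probe set, so their part in the results was not tested. In whole seedlings fewer cells of a type and less RNA per cell cannot be told apart. Of 4 genes often used as references, AT2G28390 rose by 0.29 and AT4G34270 fell by 0.18 against Col, and the latter call was lost without any 1 of the 6 arrays (adjusted p = 0.0509 to 0.107).

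Replicate 1 differed from the mean of replicates 2 and 3 by at least 1 on the log2 scale in 256 probe sets (1.13%), 120 higher (0.528%) and 136 lower (0.598%). The same count was 12 for replicate 2, 76 for replicate 3 and 0 to 50 for the other 24 arrays of the single set. In 253 of the 256 (98.8%) replicate 1 lay nearer to the acs2C mean than to the mean of replicates 2 and 3, and in 254 (99.2%) nearer to that of acs9B. This share was 92.2% for acs5D, 90.2% for acs1A, 79.3% for acs5C, 74.2% for Col, 32.8% for acs2B and 28.9% for acs6E. Since the probe sets were chosen for their distance from replicates 2 and 3, a high share is partly built in. The genes below were picked for this difference, so their values are a description.

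Higher in replicate 1 was MCCA, a subunit of the enzyme that breaks down leucine in mitochondria, at 10.45 against 8.51 and 8.24. Its mean was 9.80 in acs2C. The expansin genes EXLA1 (9.64 against 7.70 and 7.50) and EXPA16 (6.86 against 5.19 and 4.98), whose products loosen cell walls, shared this pattern, with acs2C means of 9.49 and 6.63. Lower in replicate 1 were AT2G15020 (6.0 against 8.69 and 8.75) and AT1G60590 (6.80 against 9.03 and 9.18), with acs2C means of 6.22 and 7.11. For MCCA, EXLA1, EXPA16, AT2G15020 and AT1G60590 the Col arrays lay between replicate 1 and replicates 2 and 3 or overlapped the latter.

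**Figure D5:**
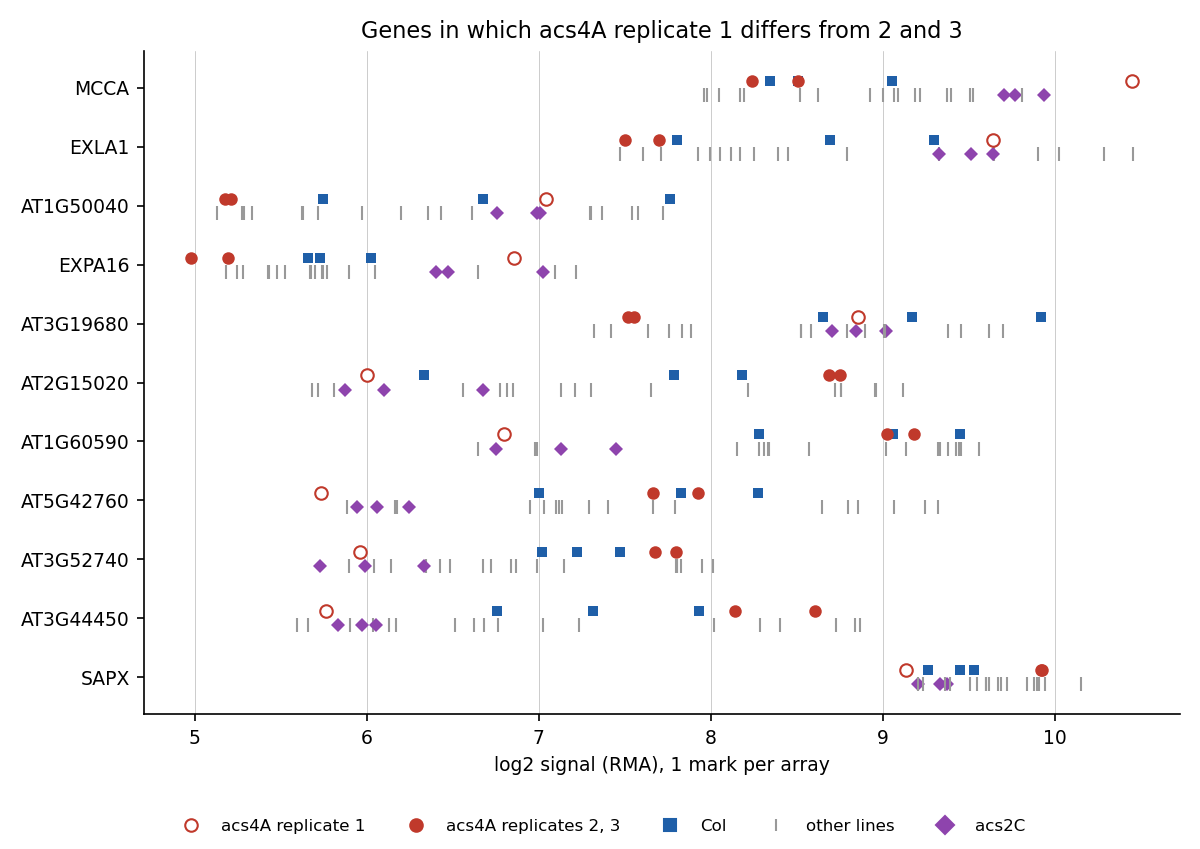
Log2 signal (x axis) in all 27 arrays of 11 genes in which acs4A replicate 1 (open circle) departs from replicates 2 and 3 (filled circles); Col is drawn as squares, acs2C as diamonds and the remaining lines as ticks. In each row the open circle lies at or near the diamonds, as for AT2G15020 at 6.0 beside an acs2C mean of 6.22, and away from the filled circles at 8.69 and 8.75.

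With replicate 1 left out, further genes passed all the criteria on replicates 2 and 3. These were looked at after the likeness to acs2C had been seen. GH9C1, GH9C2 and GH9B13, wall-modifying GH9 cellulases, were 0.69, 0.58 and 0.69 above Col and 0.33, 0.39 and 0.30 above the other lines (adjusted p = 0.0417, 0.0266 and 0.0255 for the latter). SPCH, which starts the stomatal lineage, was 0.62 above Col (adjusted p = 0.000162), and SAPX, a stromal ascorbate peroxidase that removes peroxide, was 0.51 above (adjusted p = 0.000204). SAPX read 9.92 in both arrays, 9.13 in replicate 1 and 9.26, 9.53 and 9.45 in Col.

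EXLA1 and EXPA16 were then 1.00 and 0.72 below Col (adjusted p = 0.0128 and 0.00371) and 1.21 and 0.85 below the other lines (adjusted p = 0.00155 and 0.000419), whereas with all 3 arrays they differed from Col by -0.32 and -0.13 with no call. WRKY22, a defence transcription factor, was 1.06 below Col (adjusted p = 0.00726) in place of 0.69 (adjusted p = 0.0871). The peptide gene RALFL22 was 0.61 below Col (adjusted p = 0.000625) in place of 0.38 (adjusted p = 0.0593). For RALFL22 and EXLA1, Col replicate 1 was also the highest of its group and was kept. It read 10.20 against 9.52 and 9.75 for RALFL22, and 9.30 against 7.81 and 8.70 for EXLA1. Leaving out the high array on the acs4A side alone widens these falls, and a fit without both arrays was not made. AT3G19680 read 7.56 and 7.52 in these arrays and 8.86 in replicate 1, and was 1.71 below Col (adjusted p = 8.73e-06). With 2 arrays in the group, each of these values rests on fewer measurements than those above, and their spread is estimated mostly from the other groups.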

How the data were processed

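The values are those of the deposited series table, log2 signal per probe set, made by the authors with RMA per the submitters' processing notes; its version was not stated in the sources used here. RMA corrects background, quantile normalizes and summarizes probes, so a level cannot be set against that of another probe set. Single and higher order arrays were normalized apart, and only the 27 single arrays were used. From 22810 probe sets 64 controls were left out and 22746 tested. GEO's platform annotation, updated through RefSeq (TAIR10.1), gave 13513 probe sets 1 gene, 503 several and 8730 none; only the first were named.

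limma 3.58.1 in R 4.3.3 (Python 3.11.15 for tables) was fitted with 1 coefficient per group over all 27 arrays, with two-sided tests and Benjamini-Hochberg adjustment over all probe sets at 0.05. Errors printed after ± are SE. Simulated data held 22746 probe sets, of which 200 were changed. For the comparison with Col, 84% of changes of 0.5 and 99% of changes of 1 were recovered with 12 false calls. For the other lines it was 97% and 99% with 8. The simulation gave every array the same normal spread within a probe set and had no array that stood apart. Its shares therefore need not hold for the measured acs4A and Col arrays.

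Named genes were the 15 largest held in each direction and the 10 with a symbol, the 10 largest against the other lines without a call against Col, the 10 widest gaps beyond 24 arrays, the 8 largest departures of replicate 1 where replicates 2 and 3 lay within 0.3, the 5 largest shared differences from Col, and list members; a selection is described. Genes held only without replicate 1, and those moving opposite to the other lines, were added after the values were seen. Members and lists (231 entries, of which 33 had a named probe set, plus families by symbol) were chosen with earlier results of these data known. The number of arrays limits precision. Alternatives are given in the closing section.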

Additional observations from a re-analysis of the deposited data

Results flagged for a closer look

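In 3 named genes acs4A and the other lines moved in opposite directions from Col, each past the test. The difference between the 2 movements, which is that of acs4A from the other lines, was called too. That call was a condition of the choice, so its p-values add no separate support. The genes were picked out after their values were seen, and 9 probe sets in all show this. AT1G56300 read 5.55, 6.58 and 6.40 in acs4A and 5.77, 5.43 and 5.85 in Col, so replicate 1 lay within the Col range. It was 0.49 above Col in acs4A and 0.48 below on the mean of the other lines (-0.48), a difference of 0.97 (limma adjusted p = 3.87e-05). The call against Col was lost without acs4A replicate 2 or 3 or Col replicate 2 (adjusted p = 0.133 to 0.215), and without replicate 1 the difference from the other lines was 1.29.

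AT1G70820 read 9.02, 9.63 and 9.48 against 9.04, 8.79 and 8.82, again with replicate 1 within Col. Its differences from Col were 0.50 in acs4A and -0.27 in the other lines, 0.76 apart (adjusted p = 7.32e-06), and its call against Col was lost on the 6 arrays alone (adjusted p = 0.141). AT4G14230 read 7.24, 7.36 and 7.52 against 7.41, 6.88 and 6.86, with differences of 0.32 and -0.29, 0.62 apart (adjusted p = 7.76e-05). That call against Col was lost without acs4A replicate 2 or 3 or Col replicate 2 or 3 (adjusted p = 0.0659 to 0.177). The comparisons share the Col arrays, whose control transcripts differ from those of the lines.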

How the results depend on the processing

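The count against Col of 4610 was 571 on the 6 arrays alone, 898 where a log2 difference of at least 0.5 was also asked, and 3828 to 4555 without 1 array. Against the other lines 780 became 100 with that size limit, 5700 with array weights, 401 with lines at the same bioC level, and 419 to 1540 without 1 array. The 322 held probe sets became 128, 825 and 181 under the same 3 settings, and 207 to 707 without 1 array. The 80 beyond all 24 arrays became 69 after quantile normalization, 68 after centring and 61 among the brighter probe sets; leaving out an array, which can only raise this count, gave 87 to 458. Of the genes in the lists 159 were called against Col, 46 higher and 113 lower; with a second quantile normalization 59 and 90, and 20 in all on the 6 arrays alone. The weights gave replicate 1 of acs4A 0.206 and replicate 2 4.15, so that setting rests mostly on replicate 2. Signs turned in genes in which replicate 1 departs. Over the arrays left out in turn, the difference from Col ran from -0.47 to 0.27 for AT1G25230 and from -0.42 to 0.50 for AT3G52740, and that from the other lines from -0.56 to 0.40 for AT1G23205, -0.39 to 0.35 for AT1G25230, -0.47 to 0.72 for AT1G60590 and -0.63 to 0.48 for MCCA. With array weights the latter was 0.39 for AT1G04770, -0.33 for AT1G25230, 0.59 for AT1G60590 and -0.46 for MCCA. Deviations of same-numbered acs4A and Col arrays correlated at 0.33, 0.16 and 0.037. Over all groups the mean was 0.0097 for arrays of the same number and -0.0047 for arrays of different numbers. The numbers thus do not pair the samples across the whole set. Whether replicate 1 of acs4A and replicate 1 of Col share a source of variation was not tested. With the replicate block the counts were 4644, 800 and 330. The causes of these shifts beyond the fewer arrays were not tested, and no background signal was at hand to bound dim probe sets.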

Other observations

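Of 9 measured ATG8 genes, whose proteins mark autophagosomes, 2 fell against Col and none rose, beside 10.7% of all probe sets lower and 9.57% higher. ATG8B read 7.58, 7.45 and 7.26 in acs4A and 7.87, 7.88 and 8.01 in Col, without overlap, and fell by 0.49 ± 0.11 (limma adjusted p = 0.00257), a call lost on the 6 arrays alone (adjusted p = 0.0514). ATG8G fell by 0.34, a call lost when any 1 of acs4A replicates 2 and 3 and Col replicates 2 and 3 was left out (adjusted p = 0.123 to 0.194). Limma called none of the 9 against the other lines, with 2 at an unadjusted p under 0.05. Without replicate 1 the count against Col was 4.

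Among 19 expansin genes 1 was lower than Col with all 3 arrays, and 1 was higher and 3 lower without replicate 1. Compared with Col, 2 of 46 UDP-glycosyltransferase genes rose and 2 fell. Of 989 genes that RefSeq annotates as pseudogenes, 12 were higher and 37 lower than Col, well under the 9.57% and 10.7% of all probe sets, and 4 were higher and none lower than the other lines, where the shares over all were 2.1% and 1.33%, with AT4G16870 in both counts of higher genes.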
